A study of Rattus norvegicus with 2 samples.

Results

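Alcohol dehydrogenases (ADH) and aldehyde dehydrogenases (ALDH) are the enzymes with which liver oxidises alcohols to aldehydes and aldehydes to acids. Of 10 genes of these families chosen by name, 9 had a probe that could be named here, among 13667 genes with a named probe, and all 9 were well above background on both arrays. Each has 1 probe, found by matching the RefSeq accession the array design gives to a gene table of rat assembly GRCr8. The gene listed as Adh1 stands in that table as Adh1c, with Adh1 as an older name. No probe could be named for Aldh1a7, a cytosolic enzyme related to Aldh1a1. No value below is assigned to it, though an unnamed probe given below may be its own.

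Liver RNA came from Sprague Dawley rats, and each of the groups is a pool of tissue from 3 animals on 1 one-colour array. The control animals were dosed with sodium chloride, and the treated animals with senecionine, a hepatotoxic plant alkaloid, by the i.g. route at 35 mg/kg. Both pools were collected 36 h after dosing. Age and sex are not stated in the labels used here. With 1 array per group there is no replicate and no test. Every difference below is between these 2 arrays, and a gene is counted as lower or higher where the difference is at least 2-fold, a log2 ratio of at least 1 in either direction.

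The arrays had 43379 spots each that were not controls, and the software called 44.4% of them well above background for the control pool and 64.1% for the senecionine pool. The tissue label was checked on hepatocyte markers, of which the 4 of 8 with a named probe (Alb, Serpina1, Apoc3 and Fgb) were well above background on both arrays, with a median log2 ratio of -0.85. The control array also carried transcripts known from brain. Of 10 such markers, 8 were well above background on it and 9 on the senecionine array. The 7 that both arrays detected were all past 2-fold in the lower direction on the senecionine array. The signals of the 10 summed to 7545 intensity units for the control pool, of which Tubb3 gave 5620, and to 593 for the senecionine pool. The other markers stood as follows. Neutrophil and bile duct markers were at least 2-fold higher in 3 of 3 and 2 of 2 measured cases, stellate cell markers higher in 3 and lower in 1 of 7, macrophage markers higher in 1 and lower in 3 of 6, and sinusoidal endothelial markers lower in 2 of 3. The part of a changed cell make-up in the values below was not tested, and fewer cells of a type and less RNA per cell cannot be told apart.

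In liver, ethanol passes through acetaldehyde to acetate by an ADH step in the cytosol and an ALDH step that is mainly mitochondrial. The same families handle retinol, formaldehyde, fatty aldehydes from lipid breakdown and aldehydes from amines, so that members differ in substrate rather than in reaction. All use NAD or NADP as the electron acceptor. Several are known as abundant hepatocyte proteins.

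All 9 genes gave lower values on the senecionine array than on the control array. At the 2-fold threshold 5 were lower and none was higher, whereas 17.7% of all 7803 measured genes passed that threshold downwards and 11.2% upwards. The 5 were Aldh1l1, Adh4, Aldh3a2, Adh5 and Adh1. These counts leave out Aldh1a7, whose direction is not known here. One probe without a name, A_44_P335974, may belong to it, which the gene table does not settle. That probe was chosen after its values were seen and gave 2716 units in the control pool and 14116 in the senecionine pool, a log2 ratio of 1.97 ± 0.20 (spot error), so the shared direction holds for the 9 named genes and may not hold for all 10. The median log2 ratio (senecionine minus control) of the 9 was -1.13, beside -0.14 over all measured genes. The 4 ADH genes had a median of -1.18 and the 5 ALDH genes one of -0.82. Values are log2 of the processed signal minus the array's 75th percentile. On the signals before this scaling the split of all genes turned, with 787 lower and 1620 higher (1379 and 877 with it), the median of all genes moved up by 0.41, and 3 of the 9 (Aldh1l1, Adh4 and Aldh3a2) stayed at least 2-fold lower. The error given with a ratio is the scanner software's spot error, which for these probes is at most 10.4% of the signal on either array, a technical error that holds no spread between animals.

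**Figure D1:**
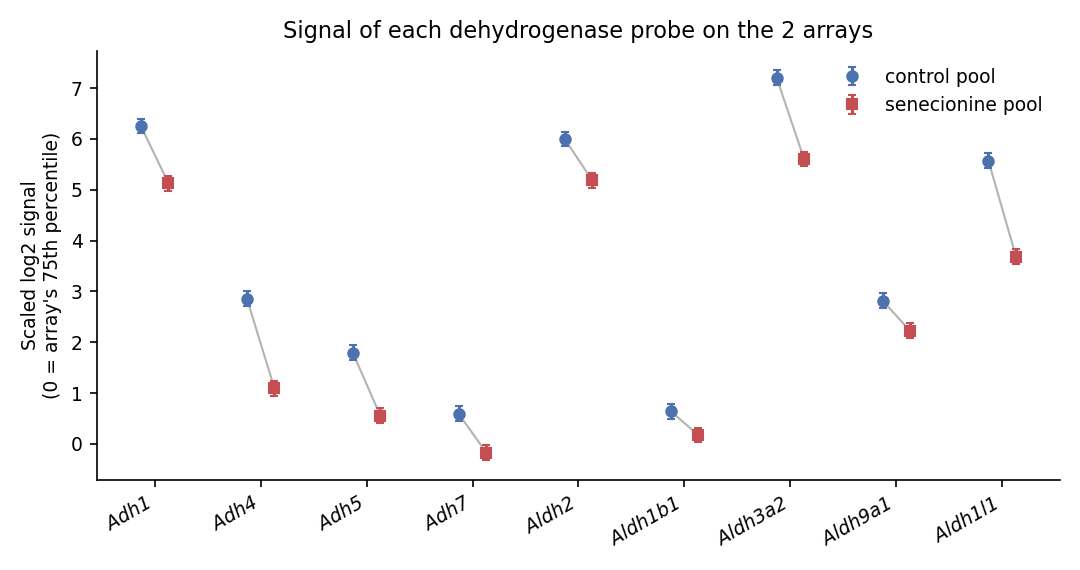
Scaled log2 signal (vertical axis, 0 is the 75th percentile of the array's spots that are not controls) of the 9 dehydrogenase probes on the control array (blue circles) and the senecionine array (red squares), with the spot error as bars. Each probe lies lower on the senecionine array, by between 0.47 and 1.88 log2 units, and heights are not comparable between probes.

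Adh1, the class I enzyme that carries most ethanol oxidation in liver and also oxidises retinol, gave a processed signal of 7687 intensity units in the control pool and 4672 in the senecionine pool. After scaling it was 2.18-fold lower (log2 ratio -1.13 ± 0.20, spot error). This is close to the threshold, and Adh1 lay within 2-fold with quantile normalization (-0.83), cyclic loess (-0.85), normexp background correction (-0.99) and without scaling (-0.72). Adh4, the class II enzyme, which acts on retinol and longer alcohols, gave 732 units in the control pool and 286 in the senecionine pool. It was 3.40-fold lower (-1.76 ± 0.20) and remained at least 2-fold lower under all 10 alternatives, where its ratio ran from -1.89 to -1.36. Among these, the authors' deposited table lists only probes past 2-fold, and keeping outlier spots or other probe rules could not change the ratio. The same limits hold for the 10 alternatives of Aldh3a2 and Aldh1l1 below.

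Adh5, the class III enzyme found in nearly all tissues, oxidises formaldehyde bound to glutathione and reduces S-nitrosoglutathione. Its signal was 350 units in the control pool and 196 in the senecionine pool. It was 2.36-fold lower (-1.24 ± 0.21), but within 2-fold with normexp correction (-0.91) and without scaling (-0.83). Esd, the esterase of the next step of formaldehyde oxidation, was within 2-fold at -0.47 ± 0.20. Adh7, the class IV enzyme known mainly from stomach and other epithelia, gave 152 units in the control pool and 119 in the senecionine pool. Its ratio of -0.76 ± 0.21 stayed within 2-fold under all 9 alternatives. The ratios of Adh4 and Adh7 differed by 1.00, beyond their combined spot error of 0.29, and those of Adh4 and Adh5 by 0.52.

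The 4 ADH genes belong to 1 run on chromosome 2. In the order of the gene table (GRCr8) the run is Adh7, Adh1c, Adh6a, the pseudogene Adh1-ps1, Adh6, Adh4 and Adh5. Their log2 ratios in this order were -0.76 for Adh7, -1.13 for Adh1, -1.39 for Adh6, -1.76 for Adh4 and -1.24 for Adh5. Adh6a was not well above background on either array, and no probe was named for the pseudogene. All 5 measured genes of the run gave lower values on the senecionine array, and Adh7, at its end, was the only one of them within 2-fold. Class I transcripts are alike in sequence, so that a probe for one may also bind those of a close relative.

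Aldh2, the mitochondrial enzyme that removes most of the acetaldehyde made from ethanol, gave 6457 units in the control pool and 4862 in the senecionine pool. It was 1.76-fold lower (-0.82 ± 0.20), within the threshold. With normexp correction, which starts from the median spot signals of 6566 and 3747, it passed the threshold at -1.01, and without scaling it was -0.41. Aldh1b1, its mitochondrial relative, gave 158 and 151 units on the control and senecionine arrays. These are nearly the same before scaling (-0.06), and the scaled ratio was -0.47 ± 0.21, the smallest of the 9.

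Aldh3a2, the fatty aldehyde dehydrogenase of the endoplasmic reticulum, breaks down long-chain aldehydes from ether lipids, phytol and sphingolipids. Its signal was 14902 units in the control pool and 6503 in the senecionine pool. It was 3.04-fold lower (-1.60 ± 0.20) and remained past 2-fold under all 10 alternatives, with a ratio between -1.73 and -1.16. Aldh9a1, which makes the carnitine precursor butyrobetaine and oxidises aminobutyraldehydes, gave 711 units in the control pool and 626 in the senecionine pool. Its ratio of -0.59 ± 0.20 stayed within 2-fold under all 9 alternatives.

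Aldh1l1, the cytosolic enzyme that releases 10-formyltetrahydrofolate as carbon dioxide and tetrahydrofolate, had the lowest ratio of the 9. Its signal was 4790 units in the control pool and 1722 in the senecionine pool. It was 3.69-fold lower (-1.88 ± 0.20) and past 2-fold under all 10 alternatives, where its ratio ran from -2.01 to -1.48. Besides hepatocytes, astrocytes are known to express Aldh1l1, and the brain markers named above were on the control array. Of the astrocyte markers among them, Aqp4 had a log2 ratio of -2.50 ± 0.26 and Slc1a2 one of -1.14 ± 0.22, while Gfap was well above background in the treated pool alone, at 5.93 units in the control pool and 12.99 in the senecionine pool. Their part in the Aldh1l1 value was not tested.

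**Figure D2:**
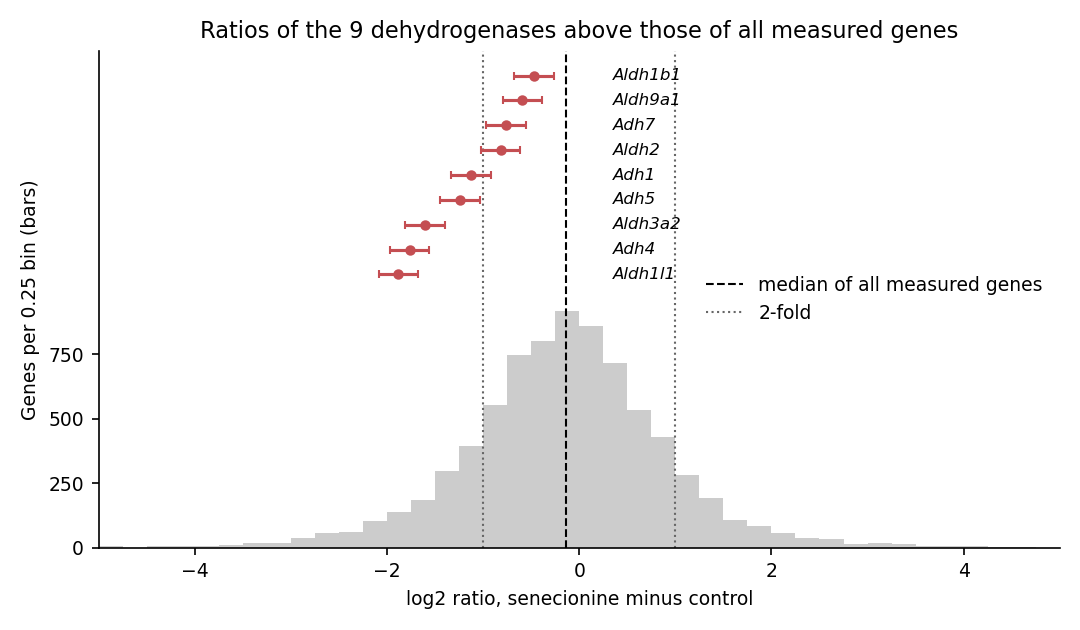
Log2 ratio (horizontal axis, senecionine minus control) of the 9 dehydrogenases (red points, bars are the spot error) above the distribution over all 7803 measured genes (grey bars, genes per bin; the axis is limited to 5 either way). All 9 points lie left of the all-gene median of -0.14 and 5 lie left of the dotted 2-fold line.

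Ordered by ratio, the 9 genes ran from Aldh1l1 through Adh4, Aldh3a2, Adh5, Adh1, Aldh2, Adh7 and Aldh9a1 to Aldh1b1. Neighbours in this order differed by less than their combined spot error in 6 of 8 pairs. The steps beyond it were from Aldh3a2 to Adh5 (0.36) and from Adh1 to Aldh2 (0.31), each against an error of 0.29. Scalings that shift a whole array leave these steps unchanged, but neither step held in every setting. With quantile normalization Aldh3a2 and Adh5 lay at -1.24 and -1.25. With normexp correction Adh1 and Aldh2 lay at -0.99 and -1.01, in the reverse order. The ends of the order, Aldh1l1 and Aldh1b1, differed by 1.41 on the log2 scale. Relative to the median of all measured genes, the median of the 9 lay between -0.99 and -0.76 in the 7 ways of scaling or background correction. Of all measured genes, 5.37% had a lower ratio than Aldh1l1, 14.7% a lower one than Adh1 and 35.4% a lower one than Aldh1b1. In the authors' deposited table, a selection of probes that differ by at least 2-fold, 4 of the 9 are listed, with log2 differences of -1.72 for Adh4, -1.56 for Aldh1l1, -1.22 for Adh5 and -1.16 for Aldh3a2. That table holds 7404 probes in all, where 40516 probes were read on these arrays.

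**Figure D3:**
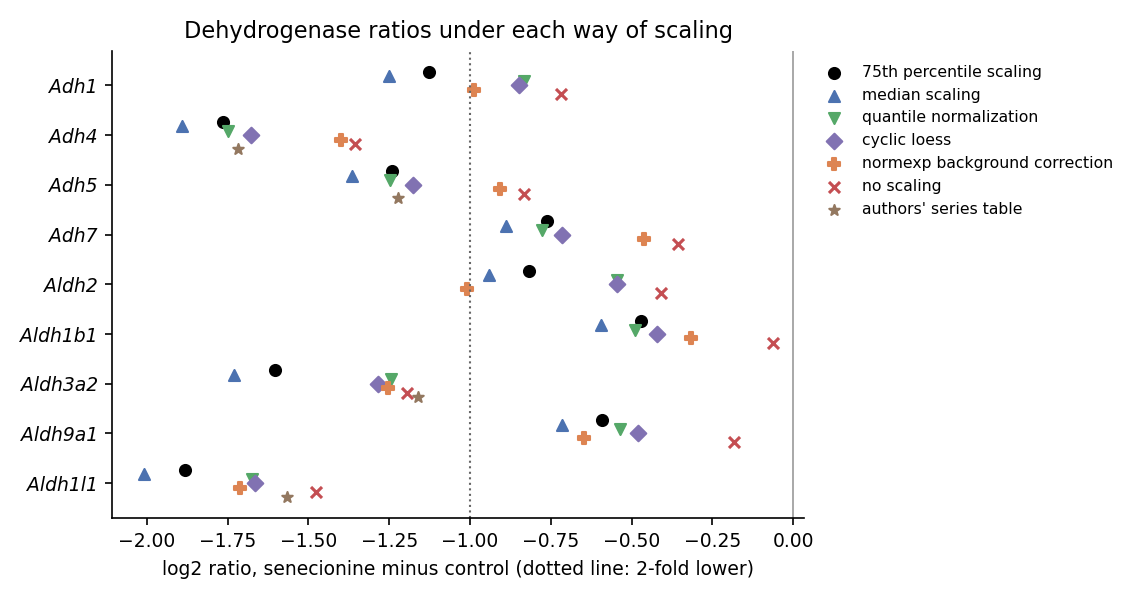
Log2 ratio (horizontal axis, senecionine minus control) of each dehydrogenase (rows) under 6 ways of scaling or correcting the signals, and in the authors' deposited table for the 4 genes it lists. Every symbol lies below 0, Adh4, Aldh3a2 and Aldh1l1 lie left of the dotted 2-fold line in each case, and Adh1, Adh5 and Aldh2 cross it. Symbols of the authors' table lie past that line by its selection of probes.

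The stretches before the starts of the 5 genes past 2-fold are shown, picked by that threshold, which Adh1 and Adh5 do not pass in every setting. They are the 250 bases upstream of each gene's RefSeq start in GRCr8, read along the gene's strand, 5′ to 3′, and capitals mark matches to the motifs named after them. Adh1 lies at chr2:229470453-229470702 (plus strand), Adh4 at chr2:229621842-229622091 (plus strand), Adh5 at chr2:229648307-229648556 (plus strand), Aldh3a2 at chr10:46448336-46448585 (minus strand) and Aldh1l1 at chr4:124616970-124617219 (plus strand).
Adh1: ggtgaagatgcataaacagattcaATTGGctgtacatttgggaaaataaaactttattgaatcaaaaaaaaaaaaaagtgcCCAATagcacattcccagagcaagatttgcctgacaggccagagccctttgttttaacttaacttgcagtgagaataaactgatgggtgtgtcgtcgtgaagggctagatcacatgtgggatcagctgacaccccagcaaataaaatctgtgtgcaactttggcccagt
Adh4: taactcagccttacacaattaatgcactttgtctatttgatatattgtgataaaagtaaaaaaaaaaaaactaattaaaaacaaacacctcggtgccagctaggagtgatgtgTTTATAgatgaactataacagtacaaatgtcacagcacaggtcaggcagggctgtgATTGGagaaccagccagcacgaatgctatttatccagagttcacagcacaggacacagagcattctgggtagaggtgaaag
Adh5: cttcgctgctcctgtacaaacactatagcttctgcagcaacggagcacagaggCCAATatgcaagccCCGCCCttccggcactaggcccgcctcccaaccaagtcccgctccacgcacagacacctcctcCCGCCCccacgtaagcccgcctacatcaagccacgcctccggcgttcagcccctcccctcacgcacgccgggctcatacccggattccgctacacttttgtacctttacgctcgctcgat
Aldh3a2: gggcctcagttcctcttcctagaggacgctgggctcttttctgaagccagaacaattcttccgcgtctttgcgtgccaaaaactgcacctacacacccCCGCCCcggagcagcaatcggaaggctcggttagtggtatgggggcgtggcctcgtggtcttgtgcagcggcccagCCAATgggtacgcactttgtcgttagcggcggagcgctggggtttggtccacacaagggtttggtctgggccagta
Aldh1l1: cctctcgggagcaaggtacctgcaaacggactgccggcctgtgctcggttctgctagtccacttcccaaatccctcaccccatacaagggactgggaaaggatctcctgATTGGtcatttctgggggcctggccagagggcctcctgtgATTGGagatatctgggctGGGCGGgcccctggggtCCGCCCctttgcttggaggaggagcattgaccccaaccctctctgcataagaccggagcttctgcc

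Motifs were searched as plain letters on both strands in the upstream stretches of the 8 members found in the promoter table, that is all but Aldh2, and their matches there do not overlap. The CCAAT box (CCAAT) occurred in all 5 stretches shown and in 7 of the 8, with Adh7 as the exception. Aldh1b1 and Aldh9a1, both within 2-fold, hold it too. Of 33469 promoters of the same length, 34.0% hold it. The GC box (GGGCGG) occurred in 3 of the 5, Adh5, Aldh3a2 and Aldh1l1, and in 30.5% of all promoters. It was found in 5 of the 8, as Adh7 and Aldh9a1, both within 2-fold, hold it too. The TATA box letters (TATAAA) occurred in Adh4 alone and in 12.9% of all promoters. The Adh4 match lies on the opposite strand (TTTATA), with its first base at -137 from the start. No match was found in any of the 8 for the E-box (CACGTG), the D-box (TTATGNAA), a C/EBP site (TTGCNNAA), an HNF4 core (CAAAGTCCA) or an antioxidant element (TGACNNNGC), which 5.59%, 3.28%, 9.22%, 0.338% and 10.1% of promoters hold. Base composition split the 5, with a GC content of 41.2% for Adh1 and 39.2% for Adh4, against 60.0% to 62.4% for the others and a median of 51.2% over all promoters. These matches describe letters in a window and say nothing of binding.

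The remaining ADH and ALDH genes went both ways. Of 10 measured, 6 were at least 2-fold lower and 2 higher, with a median log2 ratio of -1.25, but 3 were lower with normexp correction or without scaling. Beside this list and each list below stand the shares of all measured genes, 17.7% lower and 11.2% higher. Adhfe1, a mitochondrial oxidoreductase of hydroxybutyrate, was 6.96-fold lower (-2.80 ± 0.20, other probe -2.24). Aldh8a1, of tryptophan breakdown, was 3.60-fold lower and Aldh4a1, of proline breakdown, 3.56-fold lower. Aldh1l2, the mitochondrial counterpart of Aldh1l1, had a ratio of -1.32 ± 0.20 (other probe -1.11), Adh6 one of -1.39 ± 0.22 and Aldh6a1, of valine breakdown, one of -1.18 ± 0.20. The 2 higher genes stood opposite to the 9 under every scaling. Aldh1a1, the cytosolic retinal dehydrogenase, gave 2581 units in the control pool and 7748 in the senecionine pool, 2.26-fold higher after scaling (1.18 ± 0.20). Aldh3b1, which acts on lipid-derived aldehydes, gave 53.7 and 214 units on the control and senecionine arrays, a log2 ratio of 1.58 ± 0.24. Aldh3a1 and Aldh16a1 had ratios of -0.27 ± 0.22 and -0.34 ± 0.30. Aldh18a1, of proline synthesis, had signal above background in the treated pool alone and was at least 1.62-fold higher, and Aldh1a3 was detected there alone without a usable bound. Aldh1a7 is known as a close copy of Aldh1a1, and whether its transcripts bind the Aldh1a1 probe was not tested.

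**Figure D4:**
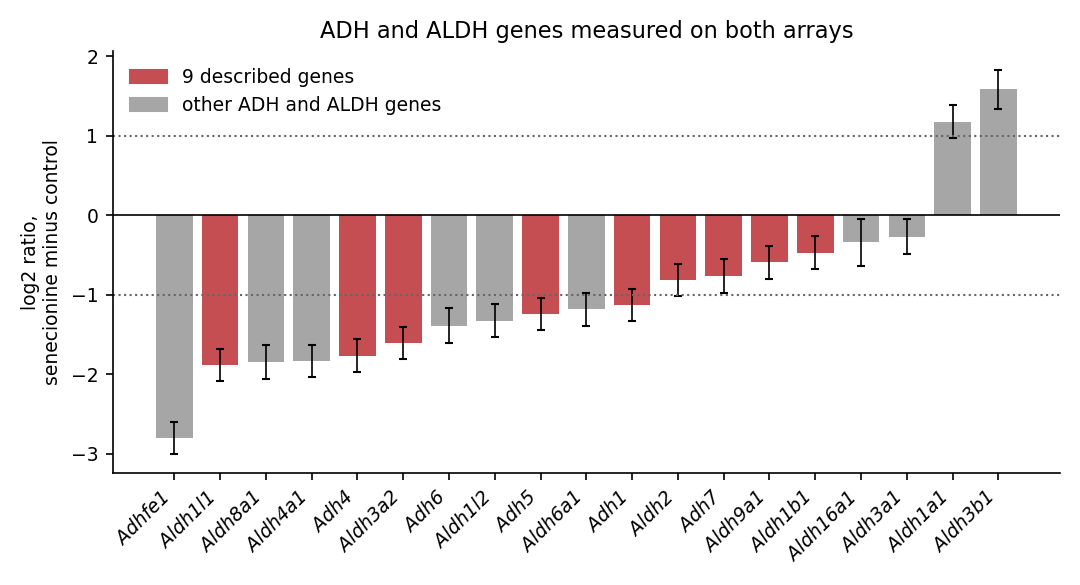
Log2 ratio (vertical axis, senecionine minus control, bars start at 0) of the 19 ADH and ALDH genes measured on both arrays, with the spot error as lines and 2-fold as dotted lines. The 9 described genes (red) all lie below 0, while Aldh1a1 and Aldh3b1 (grey) lie above the upper dotted line.

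Genes that act beside Adh1 and Aldh2 on ethanol, acetaldehyde and acetate were lower in 5 and higher in none of 10 measured (median -1.04). The peroxisomal catalase Cat was 14.9-fold lower (-3.89 ± 0.20) and the ethanol-oxidising cytochrome Cyp2e1 4.48-fold lower. The carboxylesterase Ces1d and the aldehyde oxidase Aox3 had ratios of -2.54 ± 0.20 and -2.35 ± 0.26. Retinoid genes, the other setting of Adh1, Adh4 and Adh7, were lower in 6 and higher in none of 15 (median -0.71), or lower in 3 with normexp correction and higher in 1 without scaling. Lrat, which esterifies retinol for storage and is also a stellate cell marker, was 5.02-fold lower. The retinol dehydrogenase Rdh7 had a ratio of -1.85, and Rdh16 one of -1.54 (other probe -0.59). Rdh13 and the retinol-binding protein receptor Stra6 were detected in the treated pool alone.

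Folate one-carbon genes, the pathway of Aldh1l1, were split. Of 19 measured, 7 were lower and 3 higher (median -0.83), or 4 and 2 with normexp correction. Gnmt, the glycine methyltransferase, was 8.74-fold lower, the folate transporter Slc46a1 had a ratio of -2.25 (other probe -1.07), the histidine breakdown enzyme Ftcd one of -2.22, and the purine synthesis enzyme Atic, which uses 10-formyltetrahydrofolate, was 4.06-fold higher (2.02 ± 0.29). Another 6 had signal above background in the treated pool alone. Among these the mitochondrial enzymes Mthfd2 and Mthfd1l, which make one-carbon units, were at least 12.1-fold and 4.55-fold higher, and Mtr and Mthfd2l at least 2.15-fold and 1.17-fold higher. Folr1 and Fpgs had no usable bound. Detection on that array alone was common and gives these genes no direction beyond their bounds.

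Amine and carnitine genes, the setting of Aldh9a1, were lower in 4 and higher in 2 of 8 measured (median -0.73). The carnitine synthesis enzyme Bbox1, which acts on the product of Aldh9a1, was 4.83-fold lower, and the aminobutyrate transaminase Abat 6.63-fold lower, whereas the polyamine enzymes Smox and Sat1, which feed aminoaldehydes into this step or acetylate polyamines, were 6.27-fold and 4.43-fold higher. Aoc1 and Aoc3 were detected in the treated pool alone, Aoc1 at least 3.07-fold higher. Fatty aldehyde and sphingolipid genes, the setting of Aldh3a2, were lower in 4 and higher in none of 9 (median -0.73), with 1 higher under 4 of the 6 other scalings and corrections. Hacl1 and Phyh, the peroxisomal alpha-oxidation enzymes upstream of fatty aldehydes, had ratios of -3.88 (other probe -3.28) and -2.23 (other probe -1.81). Cyp4f4 had a ratio of -2.58 and Hao2 one of -2.47. Far1, which makes fatty alcohols, and Sphk1 were detected in the treated pool alone. Far1 was at least 2.18-fold higher, while the bound of Sphk1, 1.08-fold, is too near 1 to give a direction.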

How the data were processed

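Liver RNA of 2 pools of 3 rats was measured on 2 one-colour arrays. The deposited intensity values are output of Agilent Feature Extraction 10.7.3.1, as the submitters' processing notes and file headers state. This software subtracted background and removed trends within an array and did no scaling between arrays. The authors' deposited table holds log2 values of 7404 selected probes, and how they were scaled is not given in these sources. Its columns have medians of 6.03 (control) and 6.10 (senecionine), and all 7355 of its probes compared here differ in the same direction as the scanner signals, which set its direction. The other flags deposited per spot (outlier, saturation, well above background) are the software's.

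Here log2 of the processed signal was taken, the array's 75th percentile was subtracted, control spots and spots with an outlier flag (522 on the control array, 497 on the senecionine array) were left out, and spots of a probe were averaged. No spot was saturated. Of 40516 probes, 17250 matched a gene of GRCr8 by accession. No probe coordinates are given, since the array was designed on a different build. A gene was counted as measured if both arrays had one of its probes well above background in the majority of spots, and the brightest such probe stood for it. For a gene detected on 1 array only, a lower bound on the fold was computed, with the dim side set at its own signal or at the lowest signal that array called well above background, whichever was higher. These bounds were computed under the 75th percentile scaling alone and hold no spot error. Upstream sequences are RefSeq's, of GRCr8.

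Sample titles gave the groups. The number of arrays limits the precision and allows no test. The gene rule and the counting were tested on simulated data. The members, lists and motifs were chosen with earlier results of these data known. Named genes are all members and, of each list, the 4 largest absolute ratios and the genes detected on 1 array only; 1 gene that this rule names is not reported here. Alternatives were median, quantile and cyclic loess scaling, the percentile over probes detected on both arrays, normexp correction with offset 50, keeping outlier spots, other probe rules, thresholds and filters, and the authors' values. Omitting the scaling was added after the data were examined. The work was done in R 4.3.3 with limma 3.58.1 and in Python 3.11.15 with matplotlib 3.10.9, pandas 2.3.3 and numpy 2.4.6.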

Additional observations from a re-analysis of the deposited data

How the results depend on the processing

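The log2 ratios of the 9 dehydrogenases were below 0 in all 85 values under the alternatives, and moved by less than the spot error in 62 of them. Each gene has 1 probe with 1 spot, so keeping outlier spots and the other probe rules could not change its ratio. These unchanged values are counted in the 85 and in the 62, and among the alternatives counted per gene above. The authors' table is counted there too for the genes it lists, and it holds only probes past 2-fold. The count of 5 genes at least 2-fold lower became 4 with quantile normalization, cyclic loess, normexp correction and the authors' table, which lists only selected probes, and 3 without scaling. It was 8 at a threshold of 1.5-fold and 0 at 4-fold. Of all 7803 measured genes, 1379 were at least 2-fold lower with the scaling reported above. That count was 1283 with quantile normalization, 1311 with cyclic loess, 761 with normexp correction and 787 without scaling. It was 1660 with median scaling and 1225 with the percentile over probes detected on both arrays. No count of all measured genes is given at 1.5-fold or 4-fold, so the 8 and the 0 have no background. Among the 9, the count at least 2-fold higher was 0 under every alternative run, the 1.5-fold threshold included. Median scaling moved the median of all genes by -0.13. Of 96 counts over the 8 gene lists under 6 alternatives, 18 lay beyond 1.5 times the count reported. No paired analysis was possible because each group is 1 array. Each gene rests on 1 probe, the spot error holds no spread between arrays or animals, and Adh7 and Aldh1b1, at 12.3 and 12.0 times their local background on the control array, are the dimmest of the 9.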

Other observations

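Aldehyde and ketone reductases remove aldehydes by reduction where the ALDH enzymes oxidise them. Of 12 measured, 4 were lower and 1 higher (median log2 ratio -0.44), beside 17.7% and 11.2% of all measured genes. The list had 2 lower with quantile normalization, cyclic loess, normexp correction or no scaling, and 2 higher without scaling. With the scaling reported above Akr1b7 was the higher one, with a ratio of 3.42 ± 0.22. Akr1b8 had signal above background in the treated pool alone, and its ratio was 40.1-fold or more upwards. Akr7a2, Dcxr and Akr1c14 had ratios of -2.56, -2.13 and -1.12. Cbr3 was detected in the treated pool alone, with no usable bound.

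Transcription factors listed for their known action on ADH or ALDH genes numbered 15 measured, 5 lower and 2 higher (median -0.65), or 3 and 4 without scaling. The clock output factor Dbp was 17.3-fold lower (-4.11 ± 0.21), the nuclear receptor Nr2f2 4.05-fold lower and Cebpa, a factor of hepatocyte differentiation, 3.30-fold lower. Cebpd, known from the acute phase response, had a ratio of 3.42 ± 0.20. Tef was detected in the treated pool alone, with a bound of 1.04-fold, too near 1 to give a direction. Whether these values bear on the dehydrogenases was not tested.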
